A study of Mus musculus with 4 samples.

Results

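Midbrain and hindbrain patterning genes were followed in whole mouse embryos carrying 2 copies of the V1330M allele of Btaf1 and in wild-type embryos. The set consisted of the 7 genes En1, En2, Wnt1, Pax2, Pax8, Gbx2 and Egr2, read by every non-control probe that the scanner files name after one of them. These were 8 of the 41174 probes on the array, with 2 probes for Pax8 and 1 for each of the other genes. Of the 8, 4 probes, for En2, Wnt1, Gbx2 and Egr2, were bright enough to be tested.

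Both genotypes came from C57BL/6J crossed to FVB/NJ, with an FVB/NJ share of 50 to 90%, and the allele, a missense change induced with the mutagen ENU in C57BL/6J, was homozygous in the mutants. Embryos had 3 to 5 somites where possible, and each array held 300 ng of RNA from 1 mutant pool in one dye and 1 wild-type pool in the other. In the age_matched pools litter mates were preferred and up to 5 somites of difference were allowed, while the stage_matched pools were paired by somite number. Each set was hybridised with the mutant in Cy5 (replicate 1) and with the dyes exchanged (replicate 2), so the 2 arrays of each set read one pair of pools and n = 2 sets throughout. Whether the sets share embryos is not stated. The p-values of mutant over wild type rest on the spread between the 2 set means, drawn towards that of all tested probes. They describe these pools only, and since the sets were matched in different ways, that spread is not one between repeated pools.

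The midbrain and the anterior hindbrain are patterned from the isthmus, a narrow organiser at their border. Otx2 in front and Gbx2 behind place the border. Wnt1 and Fgf8 are the secreted signals made there, Pax2 and its relatives Pax5 and Pax8 are transcription factors that help switch on this programme, and the homeodomain repressors En1 and En2 act with them on both sides of the border. Egr2 (Krox20) acts further back, in rhombomeres, the segments of the hindbrain, where it switches on Hoxa2, Hoxb2 and Epha4.

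In these embryos En2 was the single one of the 4 tested members that passed the test, against 4.81% of all tested probes. Its transcript fell to about 0.496 of the wild-type level, and was 2.72-fold lower in the age_matched and 1.5-fold lower in the stage_matched pools. Egr2 and Wnt1 read lower than wild type on all 4 arrays, and Gbx2 read higher on 3 of 4, but none of these 3 passed the test. En1, Pax2 and Pax8 lay too close to background to be tested.

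The probes are shown because each gene is read by these oligonucleotides alone. The first 30 bases of each 60-base probe are given, except for Pax2, which is shown whole with its run of 8 G in capitals.
En1, chr1:122504067-122504126, plus strand: ctgcttacgaccgtgtatatatttaatttc
En2, chr5:28498468-28498528, plus strand: ttgtaatttaagagtctgtgaataaccatc
Wnt1, chr15:98623690-98623749, plus strand: ctttgggtattatcacctttccttgtctct
Pax2, chr19:44835375-44835433, plus strand: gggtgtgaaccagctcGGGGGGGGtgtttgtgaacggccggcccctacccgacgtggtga
Pax8 (A_51_P381297), chr2:24276785-24276844, minus strand: ggagttccaggaaacaagaaccacccattt
Pax8 (A_52_P606742), chr2:24328201-24328260, minus strand: agaaaggtctcaacatctttacagctttat
Gbx2, chr1:91825013-91825072, minus strand: gagagtatattcattagacgggcttaaagg
Egr2, chr10:67004758-67004817, plus strand: gtagccaaatttcaggtgagaatgtgcttc
Positions are those of the files (mm9), and without an annotation of mm9 they were not placed in exons or untranslated regions. The Pax2 probe has 60 bases but its interval in the file has 59, and the En2 interval has 61. The Pax2 probe is 68.3% G and C, and the other 7 lie between 35% and 45%. En1, En2, Wnt1, Pax2 and Egr2 were each spotted 10 times on every array, Pax8 and Gbx2 once per probe.

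Across the array, 52.9 to 59.6% of the 43379 spots in the mutant channel and 57.1 to 59.5% in the wild-type channel stood well above background, and no spot was saturated (0 on each array). Log2 ratios of arrays with the same dye orientation were more alike (r = 0.71 and 0.42 over 21940 probes) than those of the dye-exchanged arrays of a set (r = 0.16 in the age_matched and 0.39 in the stage_matched set). Btaf1 itself read 0.10 ± 0.03 (SD, n = 2; limma adjusted p = 0.555), and since the allele is a point mutation, its transcript level does not check the labels. The 4 sign-turned ratios of a probe are averaged within each set before the test, which cancels a dye effect that is equal in both arrays of the set.

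En2 is the later-acting of the engrailed pair in the midbrain and anterior hindbrain of the mouse. Its log2 ratio of mutant over wild type was -1.51 and -1.38 on the age_matched arrays, and -0.65 and -0.52 on the stage_matched arrays. All 4 values were negative, and those of the age_matched pools lay below both stage_matched values. The normalised log2 intensity in mutant pools was 7.42 and 7.67 in the age_matched set and 8.18 and 8.17 in the stage_matched set. In wild-type pools it was 8.93 and 9.05 in the age_matched set and 8.83 and 8.69 in the stage_matched set. The mutant levels all lay below the wild-type levels, and the share of all tested probes with such a gap was not counted. Over the 2 sets En2 fell by 1.01 ± 0.61 on the log2 scale (SD, n = 2; limma adjusted p = 0.0230, lower on 4 of 4 arrays). Among all tested probes 3.14% fell at this threshold, 690 of 21940, and 45 probes, 0.205%, had a mean as low as that of En2 or lower. Without array age_matched replicate 1 the mean was -0.98 and the call ended (limma adjusted p = 0.145), and it also ended without background correction (-0.84, adjusted p = 0.0801) and when dim probes were kept (adjusted p = 0.0649). Over all alternatives the limma adjusted p ran from 0.00524 to 0.145.

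**Figure D1:**
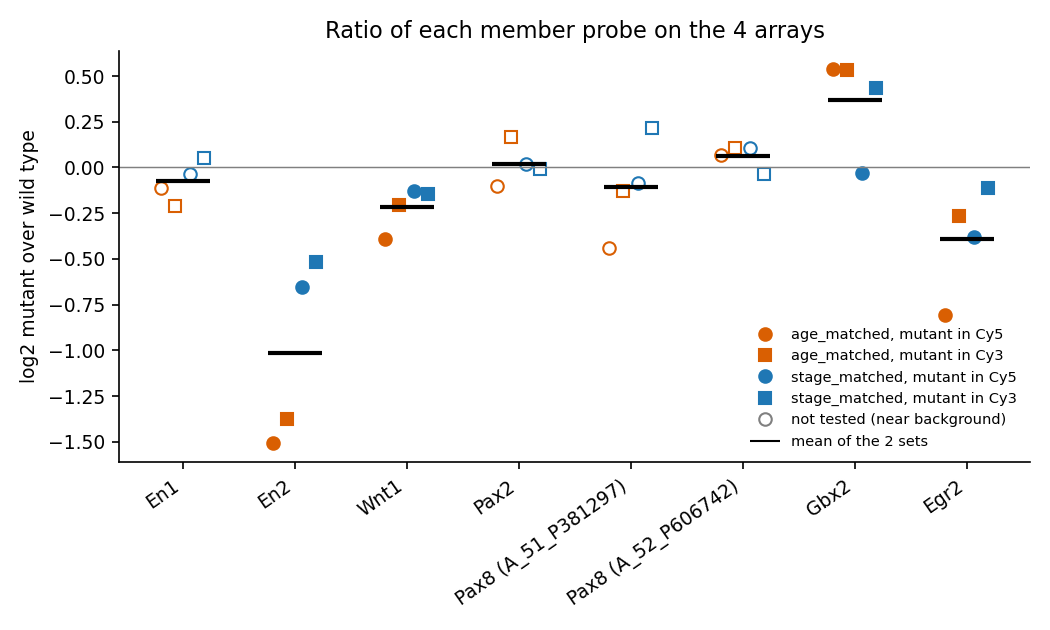
Log2 ratio of mutant over wild type (y axis) for each of the 8 member probes (x axis) on the 4 arrays, with the age_matched arrays in orange, the stage_matched arrays in blue, circles for the mutant in Cy5, squares for the mutant in Cy3 and a bar at the mean of the 2 sets. Open symbols are probes near background that were not tested. En2 is at -1.51 and -1.38 in the age_matched and -0.65 and -0.52 in the stage_matched set, while the other members lie between -0.80 and 0.54.

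The ratio of En2 differed between the sets. It was 0.86 lower in the age_matched than in the stage_matched set on the log2 scale (SE 0.17; limma adjusted p = 0.000368), a difference fitted over the 4 arrays, with set and dye as terms. The error of that test comes from dye-exchanged arrays of the same RNA, so it is technical and leaves out how embryos vary. In the same test 155 of 21940 probes, 0.706%, were lower in the age_matched set, 1.6% were higher and 2.31% differed in either direction. Probes that, like En2, both fell and were lower in the age_matched set numbered 41, or 0.187%. The call ended without background correction (-0.65, adjusted p = 0.326) and with median centring in place of loess (-1.01, adjusted p = 1.0). The sets differ in how somite number and litter were matched, and a difference in stage between mutant and wild-type pools cannot be told apart here from an effect of the allele. In whole-embryo RNA, fewer cells that express a gene and less transcript per cell cannot be told apart either.

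The repeated spots gave the reading error within an array. En2 was negative at 37 of 37 usable spots. The spots ran from -1.74 to -1.36 and from -1.66 to -1.19 on the age_matched arrays, and from -0.89 to -0.54 and from -0.70 to -0.36 on the stage_matched arrays. The spots of the age_matched arrays thus did not overlap those of the stage_matched arrays, and how many other probes show this was not counted. The SD between spots of an array was 0.10 to 0.16, against an SD of 0.61 between the sets. Spots share their RNA, label and slide and are no replicates of the comparison.

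**Figure D2:**
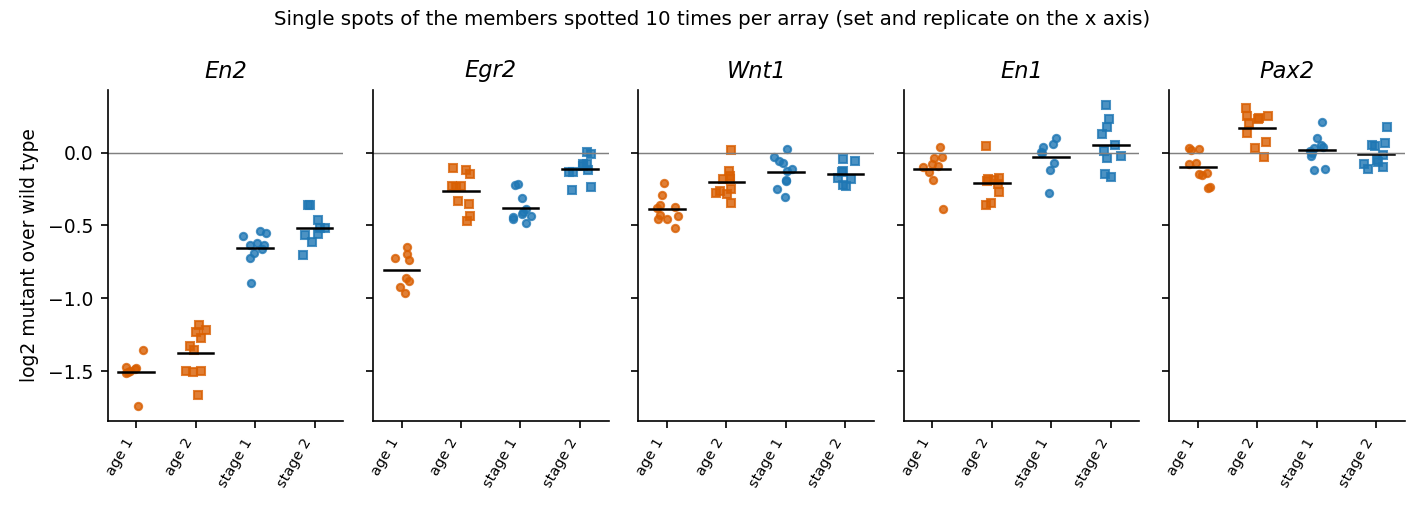
Log2 ratio of mutant over wild type (y axis) at each usable spot of the 5 members spotted 10 times per array, by set and replicate (x axis, age_matched in orange and stage_matched in blue), with a line at the array's mean. En2 spots on the age_matched arrays lie between -1.74 and -1.19 and on the stage_matched arrays between -0.89 and -0.36. Egr2 is negative at 37 of 38 spots and Wnt1 at 36 of 38.

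En1, the earlier-acting engrailed gene, was not measurable. Well above background were 0 of 40 spots in the mutant channel and 1 of 40 in the wild-type channel. Its ratio was -0.11 and -0.21 on the age_matched arrays and -0.03 and 0.05 on the stage_matched arrays. Both channels were near background, so no fold is given and no difference between the engrailed genes was tested.

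Wnt1, the signal made at the rear edge of the midbrain and along the dorsal midline, read slightly lower in the mutant pools. Its log2 ratio was -0.39 and -0.21 on the age_matched arrays and -0.13 and -0.15 on the stage_matched arrays. All 4 values were negative, as were 3305 of the 21940 tested probes (15.1%) on all their arrays. It averaged -0.22 ± 0.11 (SD, n = 2; limma adjusted p = 0.220), with a 95% interval from the fit of -0.44 to 0.00095. The normalised log2 intensity was 7.20 to 7.48 in mutant and 7.51 to 7.61 in wild-type pools. These ranges did not overlap, but the share of all tested probes with such a gap was not counted.

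The Pax members could not be tested. For Pax2, 25 of 40 spots stood above background in the mutant and 25 of 40 in the wild-type channel, but under 50% of the 10 did so on some arrays in each channel. The Pax2 ratio was -0.10 and 0.17 on the age_matched arrays and 0.02 and -0.01 on the stage_matched arrays. The signs were mixed in both sets, and with dim probes kept it averaged 0.020 (limma adjusted p = 0.934). Pax2 lies 7.75 Mb from the Btaf1 probe on chromosome 19, on the chromosome that carries the mutated allele. A difference in strain sequence under this probe cannot be told apart from one in level. Of the 356 tested probes within 20 Mb of Btaf1, 6.18% changed, against 4.79% of the rest of the array. Pax8, known for its roles in thyroid, kidney and ear as well as at the isthmus, had 1 of 4 spots above background in each genotype at one probe and 0 of 4 at the other. At A_51_P381297 its ratio was -0.44 and -0.13 in the age_matched and -0.09 and 0.22 in the stage_matched set. At A_52_P606742 it was 0.07 and 0.10 in the age_matched and 0.11 and -0.04 in the stage_matched set. With dim probes kept, neither Pax8 probe passed (limma adjusted p = 0.686 and 0.760).

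Gbx2, the homeodomain factor that marks the anterior hindbrain side of the border and is also expressed in the primitive streak region, read higher in the mutant pools. Its log2 ratio was 0.54 and 0.53 on the age_matched arrays, and -0.03 and 0.44 on the stage_matched arrays. The age_matched arrays were both high, and stage_matched replicate 1, with the mutant in Cy5, was near 0. It averaged 0.37 ± 0.23 (SD, n = 2; limma adjusted p = 0.0929), with a 95% interval from the fit of 0.12 to 0.62. That interval is not adjusted for the number of probes, of which 22.9% had an unadjusted p under 0.05. The normalised log2 intensity was 10.28 and 10.54 in mutant pools of the age_matched set and 9.60 and 9.86 in those of the stage_matched set, against 9.75 and 10.01 in wild-type pools of the age_matched set and 9.63 and 9.43 in those of the stage_matched set. The mutant and wild-type ranges overlapped. Gbx2 rested on 1 spot per array, and 1.66% of tested probes rose past the threshold.

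Egr2, the zinc finger factor of rhombomeres 3 and 5, read lower in the mutant pools. Its log2 ratio was -0.80 and -0.27 on the age_matched arrays, and -0.38 and -0.11 on the stage_matched arrays. All 4 were negative, and in each set the array with the mutant in Cy5 was the lower one. It averaged -0.39 ± 0.20 (SD, n = 2; limma adjusted p = 0.0726), with a 95% interval from the fit of -0.63 to -0.15. Without stage_matched replicate 2 the mean was -0.46 and passed (adjusted p = 0.0406), with that set then in 1 dye orientation; over all alternatives the limma adjusted p ran from 0.0406 to 0.533. The normalised log2 intensity was 9.86 and 10.10 in mutant pools of the age_matched set and 10.27 and 10.35 in those of the stage_matched set, against 10.67 and 10.36 in wild-type pools of the age_matched set and 10.65 and 10.46 in those of the stage_matched set. The highest mutant value lay just below the lowest wild-type value, and the share of all tested probes with such a gap was not counted. Egr2 was negative at 37 of 38 usable spots, with an SD between spots of 0.085 to 0.13.

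**Figure D3:**
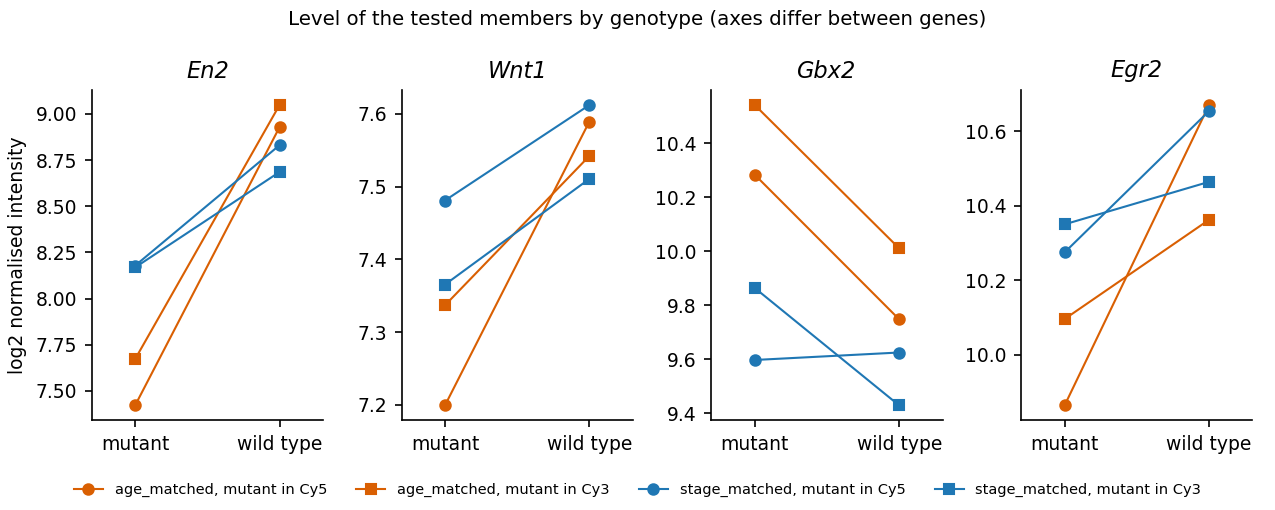
Normalised log2 intensity (y axis, its range set for each gene) of the 4 tested members in the mutant and the wild-type channel of each array, with the age_matched arrays in orange and the stage_matched arrays in blue, and a line joining the channels of 1 array. En2 in mutant pools is lower in the age_matched (7.42 and 7.67) than in the stage_matched set (8.18 and 8.17), and its wild-type values lie between 8.69 and 9.05. Gbx2 is the member whose lines run downward from mutant to wild type, on 3 of 4 arrays.

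Between the sets, the ratio of Gbx2 was 0.33 higher in the age_matched set (SE 0.18; limma adjusted p = 0.454), that of Egr2 0.29 lower in it (set difference -0.29, SE 0.17; adjusted p = 0.552) and that of Wnt1 0.16 lower in it (-0.16, SE 0.17; adjusted p = 0.828). None of these 3 differences passed. Each pointed the same way as the gene's mean ratio, and the share of all tested probes that do so was not counted. Whether the difference of En2 between the sets is larger than that of the other members was not tested.

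None of the tested genes that work with the members at the isthmus passed the test of mutant over wild type. Over all tested genes 4.88% passed, and none in a list of this size is near that share. Of 21 genes of the isthmic organiser list, 17 were tested and 0 passed in either direction by limma, with 4 higher and 0 lower at an unadjusted p under 0.05. At that unadjusted level 11.4% of all tested genes were higher and 11.3% lower. The median log2 ratio of the list was 0.07 (with median centring 0.014, leaving out age_matched replicate 1 0.21 or replicate 2 0.016, and leaving out stage_matched replicate 1 0.14), against 0.02 over all 13818 tested genes, of which 2.11% rose and 2.77% fell. Otx2, the partner of Gbx2 at the border, read -0.16 ± 0.02 (SD, n = 2). Its single arrays lay further apart, at 0.01 and -0.37 in the age_matched and -0.12 and -0.17 in the stage_matched set. Fgf8, the organiser signal, read 0.26 ± 0.29, and it lies 8.72 Mb from the Btaf1 probe. A second Fgf8 probe read 0.046. The feedback inhibitors of FGF signalling Spry1 and Spry2 read -0.10 and 0.26, and Lmx1b, a LIM homeodomain factor that maintains Wnt1, read -0.03. Wnt3a read -0.01 ± 0.42, with 0.05 and 0.52 on the age_matched arrays and -0.69 and 0.07 on the stage_matched arrays. In the test between the sets 2 of the 17 genes passed, both with a higher ratio in the age_matched set, opposite in sign to the difference of En2, while 1.38% of all tested genes were higher in it and 0.716% lower. They were Wnt3a (0.59, limma adjusted p = 0.0398) and Sp5, a transcription factor induced by Wnt signalling (0.77, adjusted p = 0.00244), which was named after its values were seen. Sp5 read 0.13 and 1.25 on the age_matched arrays and -0.33 and 0.18 on the stage_matched arrays. Pax5 was too dim to test. In the midbrain list 7 of 8 genes were tested and 0 passed by limma, with 1 higher and 2 lower at an unadjusted p under 0.05, and the median was -0.13 (-0.064 without stage_matched replicate 1). With processed signals 1 midbrain gene passed.

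Among 20 tested of 23 rhombomere genes, 1 rose and 1 fell, and the median was 0.02, turning to -0.062 with median centring. Without background correction 0 of them passed, with median centring 1 and with processed signals 3. Hoxb2, a target of Egr2 in the mouse hindbrain, rose by 0.53 ± 0.16 (SD, n = 2; limma adjusted p = 0.0276), with 0.14 and 1.15 on the age_matched arrays and 0.20 and 0.64 on the stage_matched arrays. All 4 Hoxb2 values were positive, opposite in sign to those of Egr2, and in each set the array with the mutant in Cy3 was the higher one. Of all tested probes 12.5% were positive and 15.1% negative on all 4 arrays. The other targets of Egr2 read 0.12 for Hoxa2 and -0.05 for Epha4, with 0.14 at a second Epha4 probe. Nab1, a corepressor that limits EGR factors, read 0.26 and, at a second probe, -0.06, while Nab2 was too dim to test. Cyp26a1, an enzyme that breaks down retinoic acid, fell by 0.47 ± 0.02 (limma adjusted p = 0.0302). Its arrays read -0.37 and -0.55 in the age_matched and -0.37 and -0.60 in the stage_matched set. Hoxb1, an early hindbrain gene induced by retinoic acid, read -0.05.

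Markers of neural tissue in general, and of other tissues that express members, gave the setting. Of 11 tested pan-neural genes 1 passed and the median was -0.07, with 0.06 in the age_matched and -0.05 in the stage_matched set. Sox1 and Sox2, factors of neural progenitors, read 0.10 and -0.14, and Sox3 had no probe under that symbol. Hes5, an effector of Notch in neural progenitors, fell by 0.71 ± 0.09 (limma adjusted p = 0.0113). In the forebrain list 6 of 12 genes were tested, 1 rose and 2 fell. Lhx2 fell by 0.47 (limma adjusted p = 0.0304) and Lhx5 rose by 0.52 (adjusted p = 0.0493). Lhx2 read -0.75 and -0.17 on the age_matched and -0.80 and -0.16 on the stage_matched arrays, lower with the mutant in Cy5. For the otic, renal and thyroid primordia, where Pax2 and Pax8 are also expressed, 0 of 11 tested genes passed by limma, 0 higher and 1 lower at an unadjusted p under 0.05, and the median was -0.04. In the neural crest list 2 of 11 fell, Sox10 (-1.05 ± 0.51, limma adjusted p = 0.0166) and Crabp1 (-0.57 ± 0.11, adjusted p = 0.0212), and the median was -0.12 (-0.053 without age_matched replicate 1 and -0.22 with median centring). Ets1, named after its values were seen, did not pass at its brightest probe (-0.23, limma adjusted p = 0.317). Its other tested probes read -0.42 (adjusted p = 0.0478), past the threshold, and -0.21 (adjusted p = 0.293). Between the sets the ratio of Sox10 was lower in the age_matched set (-0.72, limma adjusted p = 0.00569). The pan-neural genes Fabp7 (0.87, adjusted p = 0.000352) and Pou3f1 (0.66, adjusted p = 0.0155) and the renal gene Hoxa11 (0.69, adjusted p = 0.0090) were higher in it, and were named after their values were seen. The part of these tissue markers in the values of the members was not tested. Of the 83 tested genes in the 7 lists 8 passed, against 4.88% of all tested genes, and 0 did without background correction or without array age_matched replicate 1.

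**Figure D4:**
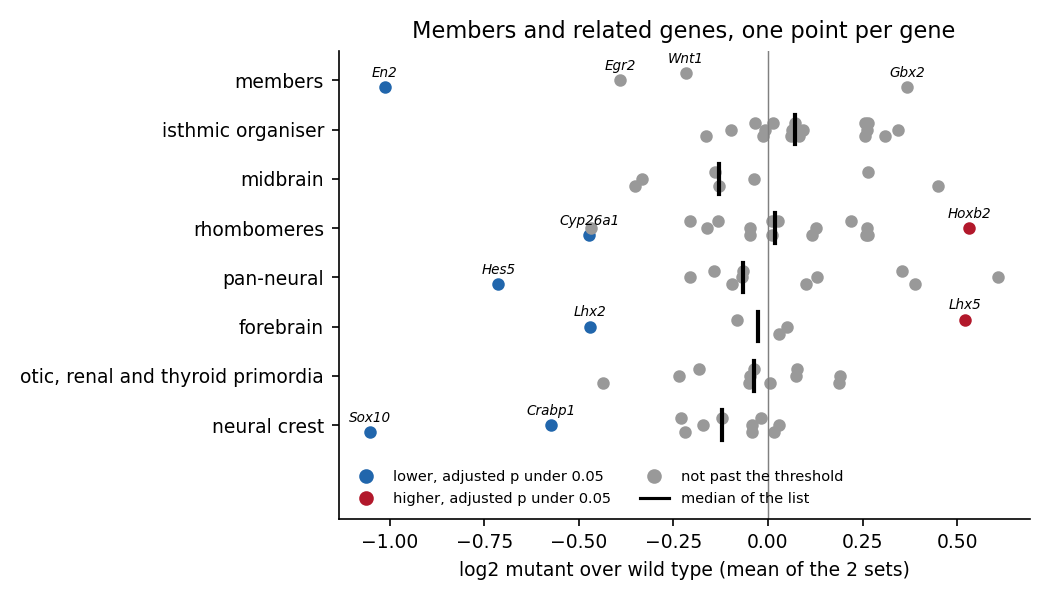
Mean log2 ratio of mutant over wild type (x axis) of genes tested in the member set and in 7 lists of related genes (y axis), with genes that fell in blue, genes that rose in red, the others in grey, and a bar at the median of each of the 7 lists. The isthmic organiser genes lie between -0.16 and 0.34 with none coloured (0 of 17). En2 at -1.01 and Sox10 at -1.05 are the lowest points shown.

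The genes whose 4 ratios lay nearest to those of En2, by Euclidean distance over the 4 arrays among 13814 other genes, were Tnni1, a troponin of slow muscle (distance 0.27), Myh8, a skeletal myosin heavy chain (0.29), and Ccnd2, cyclin D2 (0.31). Tnni1 read -1.37 and -1.52 on the age_matched arrays and -0.46 and -0.49 on the stage_matched arrays. Ccnd2 read -1.33 and -1.23 on the age_matched arrays and -0.45 and -0.55 on the stage_matched arrays. Within each set every gene was read from the same pair of RNA pools, so this likeness is a description.

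BTAF1 removes the TATA-binding protein from DNA, so the sequence before the start site was read where the RefSeq promoter table (GRCm38.p6) holds it, for 6 of the 7 members and 12 start sites. En2, the member that passed the test, had no entry, so none of the counts below cover it. Several of the 12 start sites are those of Egr2, and some of their windows overlap. The tested members Wnt1, Gbx2 and Egr2 are shown over the 100 bases before a start site, which for Egr2 is among several. Capitals mark a CArG box, the core of a serum response element.
Wnt1, chr15:98789757-98789856, plus strand: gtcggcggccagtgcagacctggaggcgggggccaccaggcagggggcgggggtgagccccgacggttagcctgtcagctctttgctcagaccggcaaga
Gbx2, chr1:89931177-89931276, minus strand: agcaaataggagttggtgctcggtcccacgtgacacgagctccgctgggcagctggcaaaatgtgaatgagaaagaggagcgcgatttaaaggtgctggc
Egr2, chr10:67537769-67537868, plus strand: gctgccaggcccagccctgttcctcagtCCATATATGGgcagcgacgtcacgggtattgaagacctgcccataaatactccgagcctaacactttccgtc
The TATA box letters TATAAA on the gene strand, from 60 to 10 bases before the start, were in 0 of the 12 member windows and in 2.65% of all 32851. TATATA was in 0 of 12 and in 1.44%. Over all 300 bases and both strands, TATAAA and TATATA were in 0 of 12 member promoters, against 13.6% and 5.67% of all. Only these exact letters were looked for, and near matches, such as cataaata in the Egr2 sequence shown, were not counted. The CArG box was looked for on both strands after the sequences were read. It was in 4 Egr2 promoter entries, some of which overlap, and stood 72 bases before the start shown here. The Egr2 entry whose last 100 bases before the start are chr10:67535399-67535498 held none. Over all 300 bases 1.63% of the 32851 promoters held one. A match or its absence describes these windows only.

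**Figure D5:**
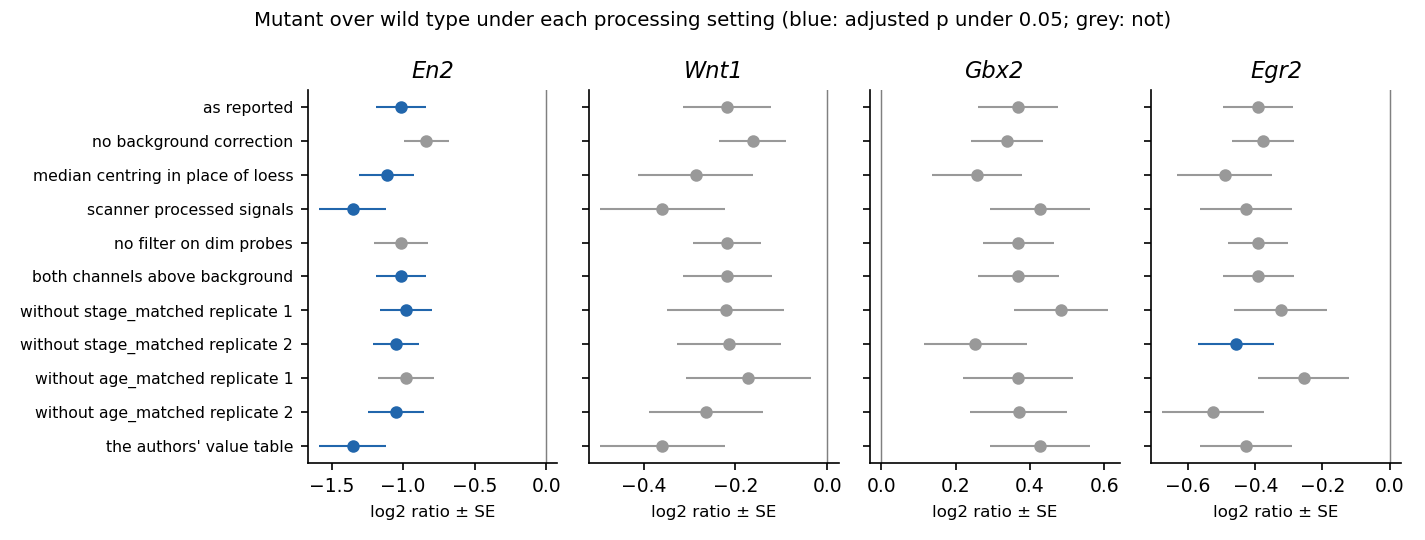
Log2 ratio of mutant over wild type (x axis, mean ± SE from limma) of the 4 tested members under the reported setting and each alternative (y axis), blue where the adjusted p was under 0.05 and grey otherwise. En2 runs from -1.35 to -0.84, and the direction of each of the 4 genes is the same under every setting shown. Filters on dim probes cannot change a mean, and the value table gives the same means as the processed signals.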

How the data were processed

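The scanner output of 4 arrays was used: spot and background intensity per dye as deposited, not normalised, and processed intensity that the scanning software had detrended, background-subtracted and dye-normalised, per the file headers. The deposited log10 ratio of the value table matched the software's ratio to 5e-06, with its sign turned on dye-exchanged arrays. The file headers give Feature Extraction 10.5.1.1 and mm9; the submitters' processing notes give 9.5.3.

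Intensities were corrected with normexp (offset 50) and loess in limma 3.58.1 (R 4.3.3). Spots the software marked were dropped, and spots of a probe averaged. A probe was tested if at least 50% of its spots were well above background in 1 genotype on all 4 arrays (21976 probes, less 36 with no usable spot on an array). limma tested the mean of both sets (degrees of freedom: 1 residual, 7.12 prior), two-sided, with Benjamini-Hochberg adjustment over 21940 probes and a threshold of 0.05. The difference between sets was fitted over the 4 arrays, with set and dye as terms (1 residual and 242 prior degrees of freedom), which makes its SE nearly alike for all probes. Levels were also scaled between arrays (Aquantile). Lists use each gene's brightest tested probe. Both fits were run on simulated data with independent noise of the fits' own variances, which could not show an effect of shared embryos or pools.

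Named genes are all members, list genes past the threshold, and 19 partner genes fixed by name; the 3 nearest genes were taken by distance. The members and lists were chosen with earlier results of these data known. Alternatives were no background correction, median centring, processed signals, the value table, other filters on dim probes, and leaving out each array. The number of arrays limits the precision. Some named list genes are not reported here by name, in value or as points in the plot of the lists, but are counted in the lists' totals and medians.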

Additional observations from a re-analysis of the deposited data

Results flagged for a closer look

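En2 was singled out because its ratio of mutant over wild type differed between the sets by the test of the difference itself. The difference, age_matched minus stage_matched, was -0.86 on the log2 scale (SE 0.17; limma adjusted p = 0.000368). The set means were -1.44 in the age_matched and -0.58 in the stage_matched set, each from 1 pair of pools read on 2 dye-exchanged arrays. The error behind that p is technical, so the test sets 1 pair of pools against another and holds no spread between embryos or pools.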

How the results depend on the processing

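The directions of En2, Wnt1, Gbx2 and Egr2 held under all 10 alternatives run, but not all of these could change them. The other filters on dim probes leave a probe's mean as it was. The value table gave the same means as the processed signals. En2 lost its call when background was not corrected (-0.84), when dim probes were kept (-1.01) and without age_matched replicate 1 (-0.98, limma adjusted p = 0.145). With 1 array left out it ran from -1.05 to -0.98. Egr2 ran from -0.53 to -0.26 with 1 array left out. The difference of En2 between the sets lost its call without background correction (-0.65) and with median centring (-1.01). Probes past the threshold numbered 365 higher and 690 lower. They were 20 and 42 without background correction, 120 and 824 with median centring, 747 and 1077 with processed signals, and 209 and 386 with dim probes kept, where more probes were tested. With 1 array left out they ran from 10 to 394 higher and from 13 to 814 lower, with fewest without age_matched replicate 1. Of called probes 34.6% were higher, against 12.7% with median centring. The causes were not tested. Over the alternatives the isthmic organiser median ran from 0.014 with median centring to 0.21 without age_matched replicate 1, the neural crest median from -0.22 with median centring to -0.053 without age_matched replicate 1, and the midbrain median from -0.16 with median centring to -0.064 without stage_matched replicate 1. Other list medians changed sign in these cases. The pan-neural median was 0.045 without stage_matched replicate 2 and 0.011 without age_matched replicate 1. The rhombomere median was -0.062 with median centring and -0.030 without stage_matched replicate 2. The forebrain median was 0.035 without age_matched replicate 1, and the otic, renal and thyroid median 0.0057 with both channels above background. Signal near background limits En1, Pax2 and Pax8. No paired analysis was possible because the labels number no replicates and each ratio already sets a mutant against a wild-type pool on 1 array.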
